A study of Mus musculus with 12 samples.

Results

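Complement is a set of plasma and tissue proteins that tag cells, synapses and debris for removal, and 9 of its genes, namely 3 chains of the recognition molecule (C1qa, C1qb, C1qc), 2 central components (C3, C4b), 1 inhibitor (Serping1) and 3 receptors (C3ar1, C5ar1, Itgam), were followed through sorted midbrain cells. They were listed by symbol, with earlier results of these data known. All 9 were present among the 24346 genes in the deposited tables, and none was left out for its values. RNA came from cells positive for hKO1, a fluorescent reporter used in this study to sort midbrain dopaminergic neurons, and the labels call the cells neural. All 12 libraries were from C57BL/6 mice and fell into 4 groups of 3: preformed fibrils of G51D α-synuclein and 12 weeks, saline and 12 weeks, fibrils and 7 weeks, and saline and 7 weeks. Fibrils, 20 µg at 5 µg/µL, or saline had been injected into the substantia nigra on both sides, and the weeks count from the injection. G51D is a variant of α-synuclein linked to familial Parkinson's disease. The promoter that drives hKO1, the age and sex of the mice, and whether animals were pooled are not given in the sources used here. Nothing says that the replicates of a group are separate animals, so p-values measure only the spread between these samples, which may be technical.

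In the classical pathway, C1q binds a target and activates the proteases C1r and C1s, which cut C4 and so lead to the cutting of C3. Fragments of C3 and C4 stay on the target, where receptors such as complement receptor 3 read them, while the small fragments C3a and C5a act on receptors of their own. In mouse brain, microglia are the main source of C1q and the main bearers of these receptors, and C4b is made by oligodendrocytes, astrocytes and other cells. C1q and C3 are known for their part in the removal of synapses during development.

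The C1q genes lie side by side on chromosome 4 (mm10) within 18700 bases, in the order C1qb (chr4:136880145-136886177), C1qc (chr4:136889802-136892914) and C1qa (chr4:136895916-136898844), all on the minus strand in GENCODE. They are separated by 3624 and 3001 bases. C3 lies at chr17:57203967-57228136 and holds the microRNA gene Mir6978. C4b lies at chr17:34728381-34743897, which is 65194 bases from its near-identical copy C4a, so reads of the pair may have been split between them. Serping1 lies at chr2:84765360-84775429, C3ar1 at chr6:122847140-122856157, C5ar1 at chr7:16246743-16259540 and Itgam at chr7:128062640-128118491. In GENCODE the model Gm49368 overlaps Itgam on the same strand.

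Promoters of 6 of the 9 members (C1qb, C1qc, C3, C3ar1, C5ar1 and Itgam) were found among RefSeq promoters of GRCm38.p6, each 300 bases long with 250 before and 50 after the start. A search on both strands for GAGGAA, the core bound by the myeloid factor PU.1 and other factors of the ETS family (TTCCTC on the other strand), found it in 3 of the 6, against 28.3% of all 32851 promoters of this length. The longer form GAGGAAGT, which contains the shorter one and reads ACTTCCTC on the other strand, was in C1qc alone among the 6, against 3.2% of all promoters. The 3 promoters that hold the core are shown, and those of C3, C3ar1 and C5ar1, which lack it, are not. C1qb and C1qc are neighbours whose levels moved together. Itgam had a Pearson r of 0.28 with C1qb and 0.17 with C1qc over the 12 libraries. Capitals mark the core, and a match is only a description of the letters.
C1qb, chr4:136886151-136886450, minus strand: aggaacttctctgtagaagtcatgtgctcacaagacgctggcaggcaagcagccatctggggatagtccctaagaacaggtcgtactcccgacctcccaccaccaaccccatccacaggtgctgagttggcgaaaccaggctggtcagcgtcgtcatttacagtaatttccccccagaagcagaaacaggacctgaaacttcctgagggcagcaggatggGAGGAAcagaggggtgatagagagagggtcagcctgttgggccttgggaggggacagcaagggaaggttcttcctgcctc
C1qc, chr4:136892865-136893164, minus strand: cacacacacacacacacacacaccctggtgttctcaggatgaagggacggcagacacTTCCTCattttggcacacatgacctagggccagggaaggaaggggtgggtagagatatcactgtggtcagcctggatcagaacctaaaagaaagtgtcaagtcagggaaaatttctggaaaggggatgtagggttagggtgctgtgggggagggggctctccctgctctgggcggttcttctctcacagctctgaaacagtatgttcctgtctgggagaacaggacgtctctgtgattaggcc
Itgam, chr7:128062390-128062689, plus strand: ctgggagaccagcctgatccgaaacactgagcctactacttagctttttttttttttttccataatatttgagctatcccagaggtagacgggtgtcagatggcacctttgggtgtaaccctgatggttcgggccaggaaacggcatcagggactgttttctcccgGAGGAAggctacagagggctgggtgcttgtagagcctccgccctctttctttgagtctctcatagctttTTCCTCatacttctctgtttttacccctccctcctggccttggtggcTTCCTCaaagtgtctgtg
The core began 30 bases before the start in C1qb and 193 bases before it in C1qc, and it stood 3 times in Itgam. The RefSeq start of C1qb is 23 bases from the one in the deposited table.

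The libraries held 2506729 to 5533324 assigned fragments. Synuclein replicates 1 and 2 at 12 weeks lay apart from the others on the leading principal components, and replicate 2 had 17409 genes detected against 19960 to 21135 in the other libraries. Levels below are TMM-scaled CPM, fragments of a gene relative to the size of the library. Summed over 12 dopaminergic markers, the level was 721.0 to 896.5 CPM in the synuclein and 636.9 to 1211 CPM in the saline libraries at 12 weeks, and 779.7 to 2684 CPM in the synuclein and 1461 to 2291 CPM in the saline libraries at 7 weeks. The dopaminergic marker Lmx1b was at 0 in 4 libraries. Markers of other cell types were present in every library, with 12 oligodendrocyte markers at 19760 to 54025 CPM and 12 endothelial markers at 9307 to 23923 CPM. In such bulk samples, fewer cells of a type and less RNA per cell cannot be told apart.

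Per unit of transcript length, the C1q chains were the most abundant members. On the FPKM scale, which also divides by transcript length, C1qb averaged 38.3 ± 41.0, C1qc 25.0 ± 21.9 and C1qa 11.7 ± 14.4 over all libraries (SD, n = 12). The next were C3ar1 at 4.97 ± 2.43, C5ar1 at 4.81 ± 2.81 and C4b at 4.63 ± 2.75 FPKM. Serping1, Itgam and C3 closed the order at 3.26 ± 2.95, 0.867 ± 0.581 and 0.267 ± 0.141 FPKM. These SDs span all 4 groups, and for each C1q chain the SD was close to or above the mean.

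**Figure D1:**
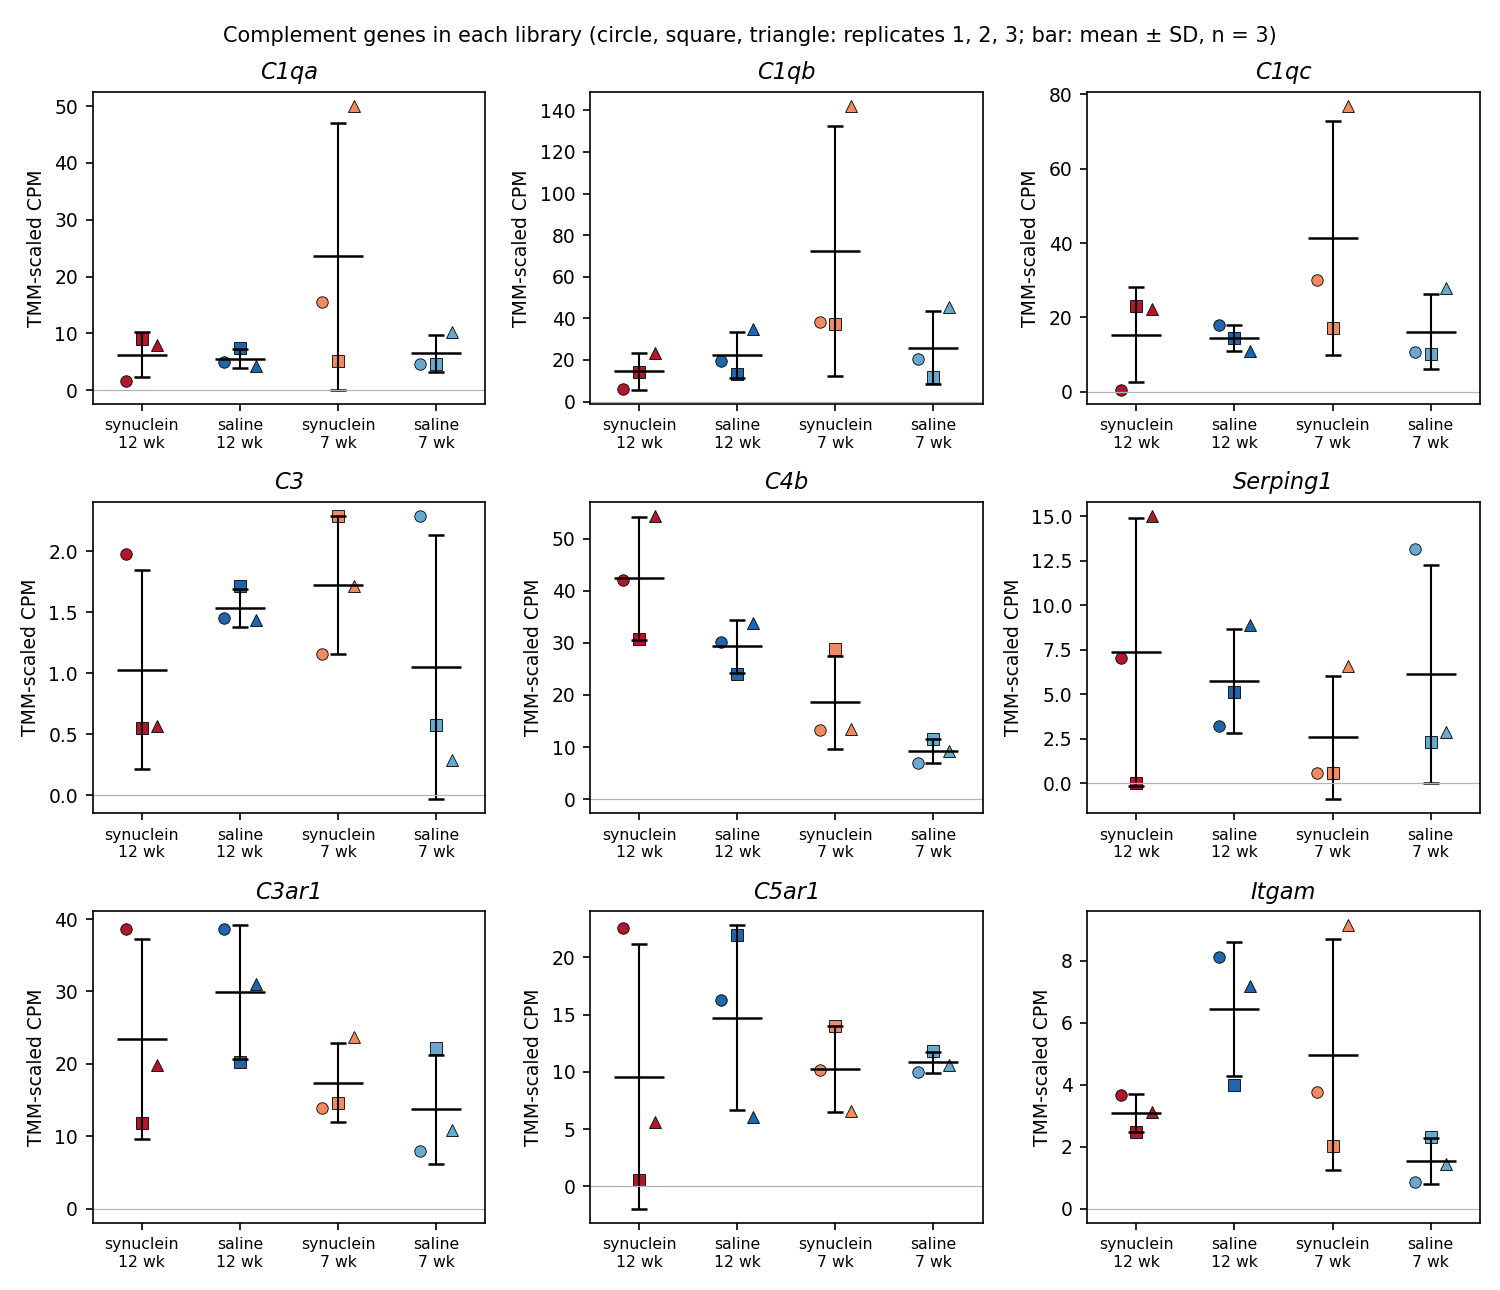
TMM-scaled CPM of the 9 members (1 panel each) in every library, with points for libraries and a bar for the mean ± SD of each group of 3. In the C1q panels synuclein replicate 3 at 7 weeks stands above all other libraries, and in the C4b panel the 12-week libraries lie at 23.9 to 54.4 CPM.

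The 3 C1q chains together form the recognition molecule that starts the classical pathway. At 12 weeks C1qa and C1qc had nearly equal means after fibrils and after saline, and C1qb averaged 14.6 ± 8.80 CPM after fibrils and 22.5 ± 11.1 CPM after saline (SD, n = 3 each). At 7 weeks all 3 had higher means after fibrils, with C1qb at 72.5 ± 60.2 CPM after fibrils and 25.9 ± 17.4 CPM after saline. No chain passed the edgeR test over all genes in any comparison. C1qa, the A chain, was at 1.69, 9.05 and 7.93 CPM in the synuclein and 4.93, 7.41 and 4.31 CPM in the saline libraries at 12 weeks, in order of replicate. Its levels at 7 weeks were 15.6, 5.15 and 49.996 CPM in the synuclein and 4.58, 4.62 and 10.3 CPM in the saline libraries. The synuclein libraries at 7 weeks held the highest C1qa level of the study and also 1 library within the saline range, so the groups overlapped.

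C1qb, the B chain, was at 5.92, 14.3 and 23.5 CPM in the synuclein and 19.7, 13.1 and 34.7 CPM in the saline libraries at 12 weeks. In the 7-week libraries it was at 38.2, 37.2 and 142 CPM in the synuclein and 20.6, 11.8 and 45.3 CPM in the saline libraries. All 3 synuclein libraries at 12 weeks lay below all 3 at 7 weeks, as for 7.13% of all genes. By contrast, saline replicate 3 at 7 weeks lay above 2 of the synuclein libraries of that time. C1qc, the C chain, was at 0.564, 23.0 and 22.4 CPM in the synuclein and 18.0, 14.5 and 10.9 CPM in the saline libraries at 12 weeks. Its levels at 7 weeks were 30.1, 17.2 and 76.9 CPM in the synuclein and 10.6, 10.1 and 27.8 CPM in the saline libraries. C1qc was lowest in synuclein replicate 1 at 12 weeks, which held 2 fragments of it.

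At 7 weeks the log2 fold of synuclein over saline was 1.85 ± 0.76 for C1qa, 1.48 ± 0.59 for C1qb and 1.35 ± 0.76 for C1qc (SE, n = 3 each, edgeR adjusted p = 1 for each). Without synuclein replicate 3 these folds were 0.66, 0.53 and 0.53. At 12 weeks the folds were 0.17 ± 0.78, −0.63 ± 0.61 and 0.08 ± 0.77. The SE of each of these was larger than or about as large as the fold. The synuclein effect at 12 weeks minus that at 7 weeks was −1.69 ± 1.09 for C1qa, −2.11 ± 0.85 for C1qb and −1.27 ± 1.09 for C1qc on the log2 scale (edgeR adjusted p of 0.952 to 0.980 over the members). Without synuclein replicate 3 at 7 weeks, these differences were −0.46 for C1qa, −1.12 for C1qb and −0.41 for C1qc.

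Between 12 and 7 weeks after synuclein, C1qb differed by a log2 fold of −2.31 ± 0.60 and C1qa by −1.92 ± 0.76 (edgeR adjusted p = 0.3891 and 0.5787). DESeq2 gave C1qb an adjusted p of 0.04647 in this comparison, which edgeR did not call. Without synuclein replicate 3 at 7 weeks, the folds were −1.33 for C1qb and −0.69 for C1qa, and without the 2 synuclein libraries at 12 weeks that lay apart, that of C1qb was −1.61. After saline the corresponding folds were −0.20 for C1qb and −0.23 for C1qa.

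The summed level of the 3 chains shows the same libraries at the ends. It was 8.18, 46.3 and 53.8 CPM in the synuclein and 42.6, 35.05 and 49.96 CPM in the saline libraries at 12 weeks. The sum at 7 weeks was 83.9, 59.5 and 268.8 CPM in the synuclein and 35.8, 26.5 and 83.5 CPM in the saline libraries. Synuclein replicate 1 at 12 weeks, with 28 C1q fragments, was lowest, and synuclein replicate 3 at 7 weeks, with 725, was highest. C1qb made up 30.9% to 71.7% of the summed C1q FPKM, with both ends of that range in synuclein libraries at 12 weeks. Over the 12 libraries, log2 CPM of C1qa and C1qc had a Pearson r of 0.88 (Spearman 0.94), C1qb and C1qc 0.81 (0.76) and C1qa and C1qb 0.81 (0.64). These correlations share libraries and depth and are given as descriptions.

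Microglial markers were summed beside C1q. Summed over 20 microglial markers, the level was 139.9, 103.9 and 211.1 CPM in the synuclein and 199.5, 176.4 and 308.7 CPM in the saline libraries at 12 weeks. In the 7-week libraries the sum was 257.4, 162.8 and 595.4 CPM in the synuclein and 179.4, 158.6 and 254.5 CPM in the saline libraries. The library highest in C1q was thus also highest in these markers. Synuclein replicate 3 at 7 weeks also held 1043 CPM of pericyte and smooth muscle markers, against 131.7 to 336.5 CPM in the other libraries. Of the 20 markers, 7 were at 0 in synuclein replicate 1 at 12 weeks, among them P2ry12, Tmem119 and Aif1, and 4 in replicate 2, among them P2ry12 and Trem2. In the saline libraries at 12 weeks, Tmem119 and Gpr34 were at 0 in replicate 2, and in those at 7 weeks Tmem119 was at 0 in replicate 1 and Trem2 in replicate 2. The median log2 fold of the 19 markers tested was −0.92 for synuclein over saline at 12 weeks and 0.69 at 7 weeks. The part of microglial RNA in the C1q levels was not tested.

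**Figure D2:**
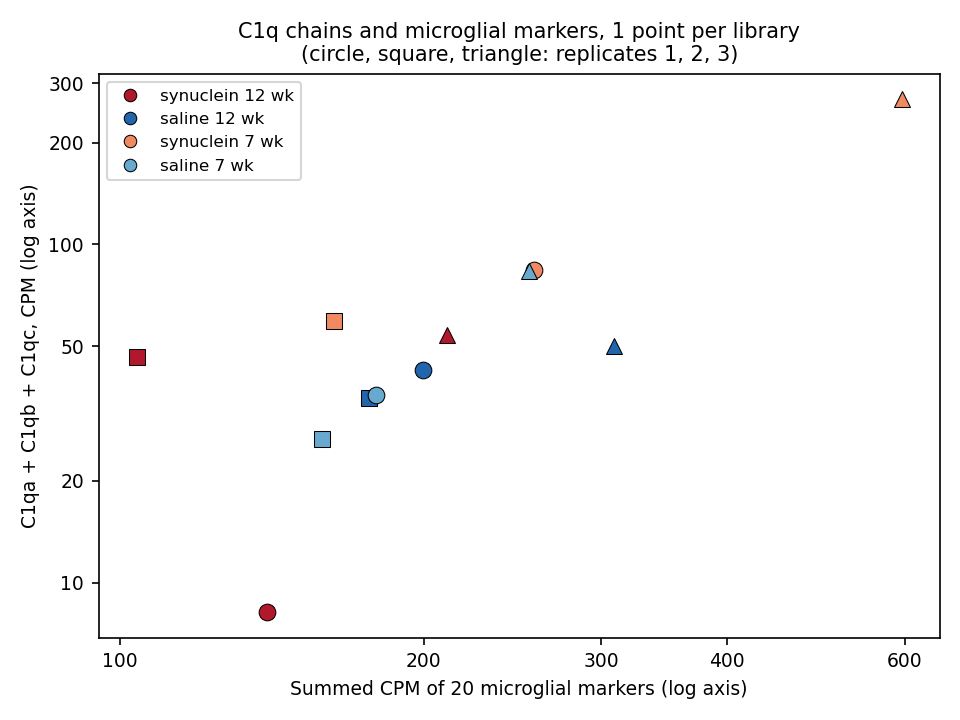
Summed CPM of the 3 C1q chains (vertical, log axis) against summed CPM of 20 microglial markers (horizontal, log axis), with 1 point per library coloured by group. Synuclein replicate 3 at 7 weeks is at the upper right, with 268.8 CPM of C1q and 595.4 CPM of the markers.

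A narrower set of 8 markers, chosen for microglia as against other myeloid cells (Cx3cr1, P2ry12, Tmem119, Siglech, Gpr34, Sall1, Fcrls, Olfml3), varied less between libraries. It summed to 49.9 to 65.4 CPM in the synuclein and 66.7 to 90.2 CPM in the saline libraries at 12 weeks, and to 35.3 to 83.4 CPM in the synuclein and 42.4 to 58.8 CPM in the saline libraries at 7 weeks. Of the 8 markers, 3 were at 0 in synuclein replicate 1 at 12 weeks (P2ry12, Tmem119, Gpr34) and 3 in replicate 2 (P2ry12, Tmem119, Siglech). In saline replicate 2 at 12 weeks 2 were at 0, and in saline replicate 1 at 7 weeks 1 was. The sum there rests on the markers left. Per 100 CPM of this set, C1qb was at 9.05, 28.6 and 43.7 CPM in the synuclein and 29.6, 17.8 and 38.5 CPM in the saline libraries at 12 weeks. The values at 7 weeks were 108.2, 60.2 and 170.2 CPM in the synuclein and 43.9, 27.9 and 77.1 CPM in the saline libraries per 100 CPM of the set. Per 100 CPM of the 8 markers, C1qb was highest in synuclein replicates 3 and 1 at 7 weeks. Per 100 CPM of the 20 markers it was at 14.8, 22.8 and 23.8 CPM in the synuclein libraries at 7 weeks, against 11.5, 7.45 and 17.8 CPM in the saline libraries, with synuclein replicates 3 and 2 highest. The other chains differed from C1qb by the 20 markers only. Per 100 CPM of these, both were highest in synuclein replicate 2 at 12 weeks, C1qa with 8.71 CPM and C1qc with 22.2 CPM. They reached at most 8.40 and 12.9 CPM at 7 weeks. Synuclein replicate 2 at 12 weeks had the lowest sum of the 20 markers, 103.9 CPM. Per 100 CPM of the 8 markers, both chains were highest in synuclein replicates 3 and 1 at 7 weeks. There C1qa was at 59.9 and 44.3 CPM and C1qc at 92.1 and 85.2 CPM. Over 12 libraries, log2 CPM and the sum of the 20 markers had a Pearson r of 0.69 for C1qa (Spearman 0.41), 0.85 for C1qb (0.80) and 0.55 for C1qc (0.55). With the sum of the 8 markers, r was 0.03 for C1qa, 0.25 for C1qb and −0.03 for C1qc. Markers of perivascular macrophages, another source of C1q in brain, summed to 76.0 to 145.8 CPM in the synuclein and 99.2 to 126.3 CPM in the saline libraries at 12 weeks, and to 113.1 to 135.7 CPM in the synuclein and 87.7 to 118.2 CPM in the saline libraries at 7 weeks.

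C4b was the only member past the test: averaged over both treatments, it rose at 12 weeks relative to 7 weeks. The gene encodes mouse C4, which the C1 proteases cut to build the classical C3 convertase. It was at 42.0, 30.7 and 54.4 CPM in the synuclein and 30.2, 23.9 and 33.9 CPM in the saline libraries at 12 weeks. Its 7-week levels were 13.3, 28.9 and 13.4 CPM in the synuclein and 6.87, 11.5 and 9.18 CPM in the saline libraries. Within each treatment, all 3 libraries at 12 weeks lay above all 3 at 7 weeks, as for 5.13% of all genes after synuclein and 8.34% after saline. At 7 weeks all 3 synuclein libraries lay above all 3 saline libraries, as for 4.70% of all genes. C4b had 23 to 223 fragments per library and C4a 4 to 26.

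At 12 weeks C4b averaged 42.4 ± 11.9 CPM after synuclein and 29.3 ± 5.03 CPM after saline, and at 7 weeks 18.5 ± 8.97 CPM after synuclein and 9.20 ± 2.33 CPM after saline (SD, n = 3 each). The log2 fold of 12 over 7 weeks over both treatments was 1.43 ± 0.30 (SE, edgeR adjusted p = 0.03763). It was 1.19 ± 0.42 after synuclein and 1.67 ± 0.43 after saline, neither past the test on its own (edgeR adjusted p = 0.5135 and 0.2333). The contrasts averaged over treatments or times were first added by an earlier analysis of these data, after the separate comparisons had been seen. The call is near the threshold: it was lost in 9 of the 12 fits that each leave out 1 library (adjusted p of 0.05586 to 0.099) and kept in the other 3 (without synuclein replicate 2 at 12 weeks, saline replicate 2 at 12 weeks or synuclein replicate 2 at 7 weeks, with 0.01876, 0.03206 and 0.04554). It was also lost without both synuclein libraries at 12 weeks that lay apart (fold 1.61, adjusted p = 0.126) and in tests on FPKM (adjusted p of 0.1409 to 0.1608). The fold was positive in all of these, at 1.16 to 1.67 over every alternative.

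For synuclein over saline, the log2 fold of C4b was 0.53 ± 0.41 at 12 weeks, 1.01 ± 0.43 at 7 weeks and 0.77 ± 0.30 over both times (edgeR adjusted p = 0.9017, 1 and 1), so none of them passed the test. The fold at 7 weeks was 0.54 without synuclein replicate 2.

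Markers of oligodendrocytes, which make C4b, moved with time as well. Summed over 12 markers, they were at 47949, 39868 and 32993 CPM in the synuclein and 54025, 29847 and 48996 CPM in the saline libraries at 12 weeks. At 7 weeks they were at 24071, 20682 and 25096 CPM in the synuclein and 30700, 21244 and 19760 CPM in the saline libraries. Of the 12, 6 passed the test as higher at 12 weeks over both treatments, against 0.541% of all genes. The median log2 fold over the 12 was 0.86. Dopaminergic markers went the other way, with 2 of 11 tested past the test as lower and a median of −1.26. In either direction, 0.834% of all genes passed. Of 12 astrocyte markers, 0 passed in edgeR and 2 had an unadjusted p under 0.05, against 9.82% of all genes. Their median log2 fold was 0.07. The astrocyte sums were 318 to 496 CPM in the synuclein and 319 to 435 CPM in the saline libraries at 12 weeks, and 352 to 518 CPM in the synuclein and 267 to 408 CPM in the saline libraries at 7 weeks. Meningeal fibroblast markers summed to 1254 to 1625 CPM in the synuclein and 1087 to 1662 CPM in the saline libraries at 12 weeks, and to 595 to 1084 CPM in the synuclein and 663 to 1054 CPM in the saline libraries at 7 weeks.

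Per 1000 CPM of oligodendrocyte markers, C4b was at 0.877, 0.770 and 1.65 CPM in the synuclein and 0.558, 0.802 and 0.692 CPM in the saline libraries at 12 weeks. At 7 weeks the ratio was 0.553, 1.40 and 0.535 CPM in the synuclein and 0.224, 0.543 and 0.465 CPM in the saline libraries. After saline the 12-week ratios were above the 7-week ones in all libraries, and after synuclein they overlapped. Per 1000 CPM of astrocyte markers, C4b was at 84.7, 96.6 and 137.4 CPM in the synuclein and 94.5, 55.1 and 83.2 CPM in the saline libraries at 12 weeks. The 7-week values of this ratio were 25.7, 82.0 and 25.9 CPM in the synuclein and 16.8, 28.6 and 34.3 CPM in the saline libraries. The part of oligodendrocyte, fibroblast or dopaminergic RNA in the C4b levels was not tested.

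**Figure D3:**
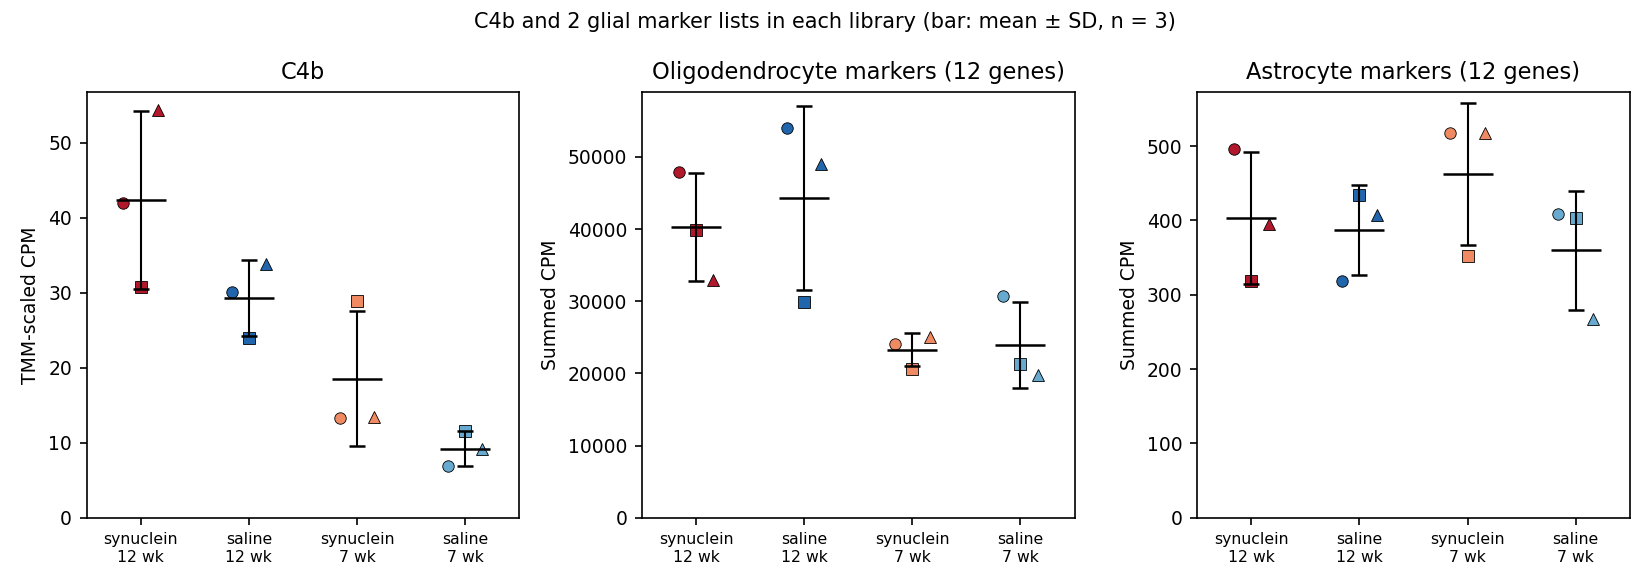
CPM of C4b, summed CPM of 12 oligodendrocyte markers and summed CPM of 12 astrocyte markers in every library, with 1 panel each and a bar for the mean ± SD of each group of 3. C4b and the oligodendrocyte sum are higher at 12 than at 7 weeks in most libraries, while the astrocyte sums overlap between the times.

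C3, the component on which all pathways meet and whose fragments mark targets for uptake, was the lowest member. It had 2 to 10 fragments per library, 57 in all, and did not pass the filter on low counts, so it was not tested. Its level was 1.97, 0.548 and 0.567 CPM in the synuclein and 1.45, 1.71 and 1.44 CPM in the saline libraries at 12 weeks. Its 7-week levels were 1.16, 2.29 and 1.71 CPM in the synuclein and 2.29, 0.577 and 0.287 CPM in the saline libraries. All groups overlapped, and a difference was not detectable at this depth.

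Serping1 encodes the C1 inhibitor, a serpin that inactivates C1r and C1s. It was at 7.05, 0 and 15.02 CPM in the synuclein and 3.19, 5.13 and 8.90 CPM in the saline libraries at 12 weeks. In the 7-week libraries it was at 0.578, 0.572 and 6.57 CPM in the synuclein and 13.2, 2.31 and 2.87 CPM in the saline libraries. Serping1 varied more within groups than between them, with 0 to 62 fragments per library. The 0 in synuclein replicate 2 at 12 weeks allows up to 0.634 CPM (3 fragments), which covers counting error only. The log2 fold of synuclein over saline was 0.36 ± 1.16 at 12 weeks and −1.24 ± 1.195 at 7 weeks. The fold at 7 weeks was −3.34 without synuclein replicate 3 and 0.01 without saline replicate 1.

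None of the receptors passed the test in any comparison. The group mean of each was highest in the saline group at 12 weeks, and the order of the other groups differed between them. C3ar1, the receptor of C3a, was at 38.6, 11.8 and 19.8 CPM in the synuclein and 38.6, 20.2 and 31.0 CPM in the saline libraries at 12 weeks. Its 7-week levels were 13.9, 14.6 and 23.7 CPM in the synuclein and 8.01, 22.2 and 10.9 CPM in the saline libraries. Its groups overlapped in each comparison. The log2 fold of 12 over 7 weeks was 0.43 ± 0.51 after synuclein and 1.12 ± 0.51 after saline (edgeR adjusted p = 0.659 after saline), and 0.78 ± 0.36 over both treatments (adjusted p = 0.4897). Ependymal markers, from cells that line the ventricles, also differed between the times. Summed over 7 markers they were at 512, 10.1 and 24.7 CPM in the synuclein and 53.9, 256.2 and 35.3 CPM in the saline libraries at 12 weeks. At 7 weeks the ependymal sum was 15.6, 8.01 and 42.0 CPM in the synuclein and 8.59, 17.3 and 10.04 CPM in the saline libraries. In edgeR 0 of the 7 passed for 12 over 7 weeks over both treatments, against 0.834% of all genes. All 7 had an unadjusted p under 0.05 as higher, against 9.82% of all genes in either direction. The median log2 fold of the 7 was 2.61. Over the 12 libraries, log2 CPM and the ependymal sum had a Pearson r of 0.73 for C3ar1 (Spearman 0.84) and 0.51 for Itgam (0.78). With monocyte and neutrophil markers, r was 0.66 for C3ar1 (0.76) and 0.66 for Itgam (0.69). Of these 11 markers only 5 passed the filter on low counts. Camp, S100a8 or both were at 0 in every library except synuclein replicate 1 and saline replicate 3 at 12 weeks. With the narrower set of 8 microglial markers, r was 0.55 for C3ar1 (0.62) and 0.59 for Itgam (0.64). With the sum of the 20 microglial markers, r was 0.16 for C3ar1 (0.04) and 0.53 for Itgam (0.45). Other lists went the other way, with r of −0.60 and −0.63 for endothelial markers and −0.61 and −0.55 for dopaminergic markers. The part of ependymal RNA, or of RNA from any of these other cell types, in the levels of C3ar1 and Itgam was not tested.

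C5ar1, the receptor of C5a, was at 22.6, 0.548 and 5.67 CPM in the synuclein and 16.2, 21.9 and 6.03 CPM in the saline libraries at 12 weeks. In the 7-week libraries it was at 10.1, 14.0 and 6.57 CPM in the synuclein and 10.02, 11.8 and 10.6 CPM in the saline libraries. Its spread was widest in the synuclein libraries at 12 weeks and narrowest in the saline libraries at 7 weeks, where the SD was 0.921 CPM around 10.8 CPM. The log2 fold of synuclein over saline was −0.62 ± 0.81 at 12 weeks, and −2.19 without synuclein replicate 1, and −0.08 ± 0.81 at 7 weeks.

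Itgam encodes CD11b, the α chain of complement receptor 3, which binds fragments of C3. It was at 3.67, 2.47 and 3.12 CPM in the synuclein and 8.12, 3.99 and 7.18 CPM in the saline libraries at 12 weeks. At 7 weeks Itgam was at 3.76, 2.003 and 9.14 CPM in the synuclein and 0.859, 2.31 and 1.43 CPM in the saline libraries. All 3 synuclein libraries at 12 weeks lay below all 3 saline libraries, as for 6.67% of all genes. The saline libraries at 12 weeks in turn lay above all 3 saline libraries at 7 weeks, as for 8.34% of all genes. These levels rest on 3 to 28 fragments per library. The log2 fold of synuclein over saline was −1.05 ± 0.80 at 12 weeks and 1.67 ± 0.84 at 7 weeks, and the effect at 12 weeks minus that at 7 weeks was −2.73 ± 1.16 (unadjusted p = 0.03008, edgeR adjusted p over 0.95). Without synuclein replicate 3 at 7 weeks, the fold at 7 weeks was 0.89 and the difference between the times −1.91. Between 12 and 7 weeks after saline the fold was 2.04 ± 0.83 (edgeR adjusted p = 0.584). Over the 12 libraries, log2 CPM of Itgam and C3ar1 had a Pearson r of 0.79 (Spearman 0.73). Markers of monocytes and neutrophils, which also bear CD11b, summed to 25.8 to 55.6 CPM in the synuclein and 39.3 to 55.4 CPM in the saline libraries at 12 weeks, and to 37.8 to 54.9 CPM in the synuclein and 29.8 to 35.5 CPM in the saline libraries at 7 weeks. Only 5 of these 11 markers passed the filter on low counts.

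Ordered by group mean, the C1q chains and C3 were highest in the synuclein group at 7 weeks, C4b and Serping1 in the synuclein group at 12 weeks, and C3ar1, C5ar1 and Itgam in the saline group at 12 weeks. Of the neighbouring groups in these orders, ranges did not overlap only for C4b between the synuclein and saline groups at 7 weeks and for Itgam between the synuclein group at 12 weeks and the saline group at 7 weeks. The groups of the C4b pair did not overlap, with synuclein higher, for 4.70% of all genes. For the Itgam pair no share over all genes was taken. Which groups are neighbours was set by these same means.

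**Figure D4:**
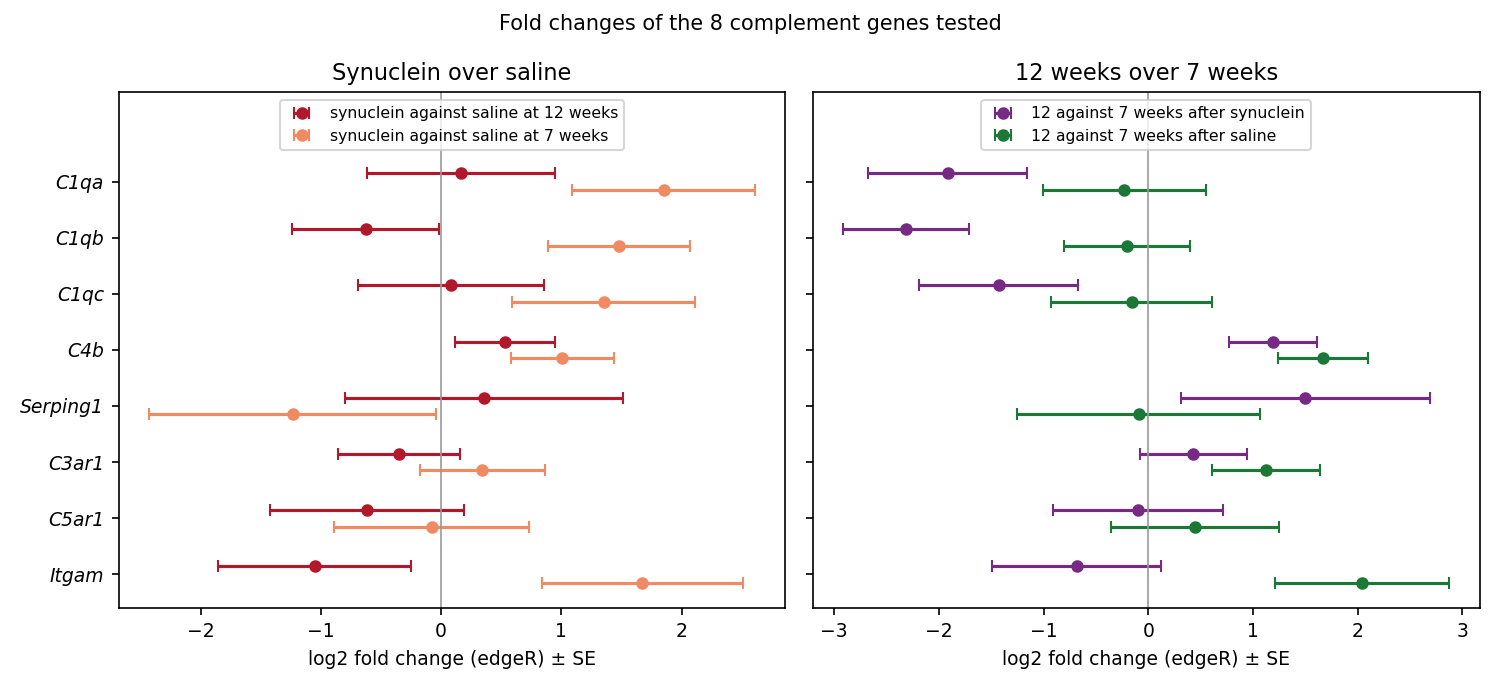
Log2 folds ± SE of the 8 members tested, with synuclein over saline at 12 and 7 weeks in the left panel and 12 over 7 weeks after synuclein and after saline in the right panel. C4b lies above 0 in all 4 comparisons, at 0.53 to 1.67, and the C1q chains lie above 0 at 7 weeks on the left.

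The members' counts are given beside those over all 17380 genes tested. For synuclein over saline at 12 weeks, 0 of the 8 members tested and 0% of all genes passed the edgeR test at an adjusted p under 0.05, and 0 members against 5.57% of all genes had an unadjusted p under 0.05. The groups did not overlap, with synuclein lower, for 1 member (Itgam) and 6.67% of all genes. At 7 weeks 0 members and 0% of all genes passed, while 3 members (C1qa, C1qb and C4b) and 1.64% of all genes had an unadjusted p under 0.05. At 7 weeks, 6 of the 8 members were higher after synuclein, against 51.2% of all genes, and the groups did not overlap, with synuclein higher, for 1 member (C4b) and 4.70% of all genes. The 3 C1q chains, whose levels moved together, were among these 6 members. Without synuclein replicate 3 at 7 weeks, their log2 folds were 0.66 for C1qa, 0.53 for C1qb and 0.53 for C1qc. The median log2 fold over the 8 members was −0.14 at 12 weeks and 1.18 at 7 weeks, against −0.04 and 0.01 over all genes tested.

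For the synuclein effect at 12 weeks against that at 7 weeks, 0 members and 0% of all genes passed, and 2 members (C1qb and Itgam, both lower) and 4.49% of all genes had an unadjusted p under 0.05. The members' median was −0.98, against −0.05 over all genes. Over both times, synuclein over saline gave 0 members and 0% of all genes past the test, and 1 member (C4b) and 2.48% of all genes at an unadjusted p under 0.05, with medians of 0.37 for the members and −0.01 for all genes. DESeq2 called no member in any of these comparisons of synuclein with saline.

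For 12 over 7 weeks after synuclein, 0 members and 0% of all genes passed in edgeR, and 3 members (C1qa and C1qb lower, C4b higher) and 7.58% of all genes had an unadjusted p under 0.05. The groups did not overlap for 1 member in each direction: C4b was higher at 12 weeks, as were 5.13% of all genes, and C1qb lower, as were 7.13%. After saline, 0 members and 0% of all genes passed in edgeR, DESeq2 called no member, and 3 members (C4b, C3ar1 and Itgam, all higher) and 7.42% of all genes had an unadjusted p under 0.05. Groups did not overlap, with 12 weeks higher, for 2 members (C4b and Itgam) and 8.34% of all genes. The members' medians were −0.39 after synuclein and 0.18 after saline, against −0.06 and 0.01 over all genes. Over both treatments, 1 member (C4b) and 0.834% of all genes passed the test, of which 0.541% of all genes were higher at 12 weeks, and 3 members (C4b and C3ar1 higher, C1qb lower) and 9.82% of all genes had an unadjusted p under 0.05. The members' median was 0.43, against −0.03 over all genes. Comparisons that use the same libraries are not independent of each other.

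Among further genes of the pathway, edgeR made no call. Of 48 further complement genes listed, 47 were in the tables and 34 passed the filter on low counts: 17 of 25 components, 11 of 15 regulators and 6 of 7 receptors. None of the 34 passed the edgeR test in any of the 7 comparisons, against 0% to 0.834% of all genes. At an unadjusted p under 0.05 there were 0 to 2 of the 34 per comparison, against 1.64% to 9.82% of all genes. The median log2 fold of the 34 for synuclein over saline was −0.23 at 12 weeks and 0.23 at 7 weeks. The 3 components with the highest levels were Colec12, a collectin-like scavenger receptor, and the proteases C1s2 and C1ra. Colec12 averaged 65.8 CPM in the synuclein and 90.5 CPM in the saline libraries at 12 weeks, and 77.5 CPM in the synuclein and 69.2 CPM in the saline libraries at 7 weeks. Both C1s2 and C1ra belong to the protease families that the C1 inhibitor blocks. C1s2 averaged 9.84 CPM in the synuclein and 9.10 CPM in the saline libraries at 12 weeks, and 5.07 CPM in the synuclein and 6.32 CPM in the saline libraries at 7 weeks. C1ra averaged 7.91 CPM in the synuclein and 5.36 CPM in the saline libraries at 12 weeks, and 6.50 CPM in the synuclein and 3.54 CPM in the saline libraries at 7 weeks.

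Among regulators, Cd59a, which blocks the membrane attack complex, averaged 189 ± 57.1 CPM in the synuclein and 146.5 ± 28.5 CPM in the saline libraries at 12 weeks, and 307.6 ± 169 CPM in the synuclein and 316.7 ± 79.5 CPM in the saline libraries at 7 weeks (SD, n = 3 each). Its log2 fold of 12 over 7 weeks over both treatments was −0.91 ± 0.24 (edgeR adjusted p = 0.08729), and DESeq2 called it (adjusted p = 0.01572), as it did after saline (log2 fold −1.10, adjusted p = 0.04995). Vtn, vitronectin, which also restrains the attack complex, had a log2 fold of 0.63 ± 0.36 for 12 over 7 weeks over both treatments (edgeR adjusted p = 0.6323). It passed edgeR only without synuclein replicate 3 at 7 weeks (log2 fold 1.25, adjusted p = 0.04288). That library held 1043 CPM of pericyte and smooth muscle markers, a list that includes Vtn. Vtn was named after its values were seen. Clu, clusterin, a chaperone that binds the attack complex, averaged 223.9 ± 132 CPM in the synuclein and 99.1 ± 23.5 CPM in the saline libraries at 12 weeks, and 123 ± 34.2 CPM in the synuclein and 198.3 ± 207 CPM in the saline libraries at 7 weeks. The log2 fold of Clu at 12 weeks was 1.18 ± 0.53 (edgeR adjusted p = 0.8867), and the difference from 7 weeks was 1.86 ± 0.74 (adjusted p = 0.9523). Cr1l, or Crry, which protects rodent cells from C3 deposition, had group means of 86.3 to 100.8 CPM. Among receptors, the group means were 202.6 to 258.4 CPM for Cd93, 46.3 to 56.6 CPM for C1qbp, a protein first found by its binding to C1q, and 16.9 to 19.1 CPM for C5ar2, the other receptor of C5a.

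Among 13764 tested genes with a mean of at least 5 CPM, the 8 whose log2 CPM was most like the mean of the C1q chains over 12 libraries were Porcn (Pearson r 0.895), Fcer1g (0.882), Cd68 (0.88), Fbf1 (0.857), Gria3 (0.842), Zfyve16 (0.831), Glmn (0.828) and Tcta (0.822). Fcer1g, a signalling chain of Fc receptors, and Cd68, a lysosomal protein of phagocytes, belong to the microglial list above. Cd68 averaged 2.35 CPM in the synuclein and 4.601 CPM in the saline libraries at 12 weeks, and 19.9 CPM in the synuclein and 7.27 CPM in the saline libraries at 7 weeks. The order depended on the measure and on 1 library: of these 8, Gria3 alone was among the first 8 by Spearman's rho, and Fbf1 and Gria3 were among them by Pearson's r without synuclein replicate 3 at 7 weeks. For C4b the 3 most alike were Asap2 (r 0.908), H6pd (0.864) and Srebf2 (0.861), and for Serping1 they were Gm9776 (0.908), Zfp82 (0.872) and Zfp953 (0.868). C4b itself had a Pearson r of 0.61 with the oligodendrocyte sum (Spearman 0.66), of 0.58 with the meningeal fibroblast sum (0.70) and of −0.68 with the dopaminergic sum (−0.71).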

How the data were processed

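RNA from hKO1-positive cells was amplified with the SMARTer Ultra-Low kit in 12 libraries, per the labels' protocols. The authors named TopHat2 2.0.13, Bowtie2 2.2.3 and Cufflinks 2.2.1, per the submitters' processing notes, and deposited estimated counts and FPKM for 24346 genes. No source used here states the build. GENCODE release M21 (mm10) held 95.7% of the gene names, 61.2% of these with both ends within 1000 bases, so coordinates were read as mm10 and moved to count from 1. The deposited estimated counts had been scaled per library: 98.75% to 98.94% of values were whole multiples of 1 step (0.685157 to 1.29796) within 0.02 fragments, and dividing by the step gave the assigned fragments. The low depth of some members limits the precision, and fragments are not molecules counted by identifiers.

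Counts, rounded to whole numbers, entered the edgeR quasi-likelihood test (edgeR 4.0.16, limma 3.58.1, R 4.3.3) after filterByExpr, which left 17380 genes, with TMM scaling, 1 mean per group over all 12 libraries and 8 residual degrees of freedom. The common biological coefficient of variation was 46.6%. P-values were adjusted by Benjamini-Hochberg over all 17380 genes (threshold 0.05). CPM are TMM-scaled, and log2 CPM for correlations has a prior count of 2. FPKM were used to compare levels between genes and, as log2 values with a pseudocount of 0.1 or 1, in an alternative. Other alternatives were RLE and upper-quartile scaling, DESeq2 1.42.0, limma-voom, no filter, whole fragments, a replicate block and leaving out libraries. The fit was tested on simulated counts.

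Members, gene lists and tests were chosen with earlier results of these data known. All 9 members are named. Of the wider list, those past the test, or otherwise the 3 with the highest mean CPM per role, are named, together with the genes most alike in pattern (8 for C1q, 3 each for C4b and Serping1). C3 had none, since it was not tested. The listed name C1s was not matched. Figures were drawn with matplotlib 3.10.9.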

Additional observations from a re-analysis of the deposited data

How the results depend on the processing

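Of 56 member folds (8 members, 7 comparisons), 36 kept their sign under every alternative and 20 changed it under at least 1, in 66 of 1318 values. No member was called for synuclein over saline by any alternative. The call of C4b over time remained under RLE, upper-quartile, DESeq2 (adjusted p = 0.0002499), limma-voom (0.04102), no filter and whole fragments (0.04031); members past the test numbered 0 in the 3 FPKM settings and 0 without both 12-week synuclein libraries that lie apart, and 0 to 1 without 1 library. DESeq2 called 1 member for 12 over 7 weeks after synuclein (C1qb). Without both of those libraries, the lone library left in that group is assumed to vary like the others. The cause of these differences was not tested.

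All genes past the test, 0 except 145 for 12 over 7 weeks over both treatments, changed as follows. DESeq2 gave 12 for synuclein over saline at 12 weeks, 3 over both times, 59 for 12 over 7 weeks after synuclein, 173 after saline and 449 over both treatments. The FPKM settings (pseudocount 0.1, 1, and 0.1 with no filter) gave 4, 2 and 4 at 12 weeks, 1, 1 and 1 at 7 weeks, 2 for the difference between the times with 0.1, 3, 2 and 2 over time after saline, 2 and 2 after synuclein, 2, 0 and 2 over both treatments, and 2 and 2 for synuclein over saline over both times. No filter gave 7, the libraries compared alone 49 and leaving out the 2 that lie apart 14 over time after saline, and the last gave 0 over both treatments. Leaving out 1 library gave 0 to 1 at 12 weeks, 0 to 1 at 7 weeks, 0 to 1 over both times, 0 to 2 over time after synuclein, 0 to 9 after saline and 24 to 214 over both treatments.

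Same-numbered libraries of different groups had correlations of −0.06 to 0.11 (18 pairs, 1 over 0.1). With 3 libraries per group, these low values do not show that the numbers pair the libraries, and they cannot exclude it. With the replicate number as a block, 34 genes passed for 12 over 7 weeks after saline and 246 over both treatments, where C4b was at 1.46 ± 0.31 (adjusted p = 0.0275). The block changed no other member's call, and of the wider list it called Cd59a over both treatments (−0.88, adjusted p = 0.02434). It reversed C1qa (−0.03), C1qc (−0.26) and Serping1 (−0.45) at 12 weeks, and C1qc (0.13) and Serping1 (0.04) over time after saline.

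Other reversed log2 folds are these. For synuclein over saline at 12 weeks, C1qa was −0.10 with limma-voom and −0.06, −0.00 and −0.06 with FPKM, C1qc −0.03 with upper-quartile scaling, −0.99 with limma-voom and −0.99, −0.66 and −0.99 with FPKM, Serping1 −1.17 with limma-voom and −1.02, −0.16 and −1.02 with FPKM, and C1qb 0.07 without the 2 libraries that lie apart. Over time after saline, Serping1 was 0.23 with limma-voom and 0.26, 0.15 and 0.26 with FPKM. Over time over both treatments, C5ar1 was −0.45 with limma-voom, −0.45, −0.16 and −0.45 with FPKM and −0.21 without the 2 that lie apart. For synuclein over saline over both times, Serping1 was 0.08 without those 2, and C3ar1 0.01 with RLE, 0.01 with DESeq2 and 0.01 with no filter.

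Leaving out 1 library gave these ranges across 0. At 12 weeks they were −0.17 to 0.66 for C1qa, −0.29 to 0.70 for C1qc and −0.70 to 0.97 for Serping1. At 7 weeks they were −3.34 to 0.01 for Serping1 and −0.37 to 0.15 for C5ar1. For the difference between the times they were −0.70 to 0.02 for C4b and −2.10 to 0.05 for C5ar1. Over time after synuclein they were −0.08 to 0.78 for C3ar1, −1.66 to 0.49 for C5ar1 and −1.04 to 0.13 for Itgam. Over time after saline they were −0.51 to 0.30 for C1qa, −0.63 to 0.49 for C1qb, −0.43 to 0.51 for C1qc and −0.52 to 1.14 for Serping1, and over both treatments −0.61 to 0.46 for C5ar1. For synuclein over saline over both times they were −0.03 to 0.79 for C1qb, −1.48 to 0.19 for Serping1, −0.27 to 0.27 for C3ar1 and −0.07 to 0.52 for Itgam.

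Depth limits C3 (57 fragments in all), Itgam (3 to 28 per library) and Serping1 (0 to 62).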
